A study of Mus musculus with 4 samples.

Results

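The NF-kB transcription factor genes and the genes for their feedback inhibitors were examined as a group of 10 genes, out of 38713 genes with a value in the expression table. The 10 genes were selected by symbol, and earlier results of these data were known when they were chosen. They comprise 5 subunit genes (Nfkb1, Nfkb2, Rel, Rela and Relb) and 5 feedback genes (Nfkbia, Nfkbie, Nfkbiz, Tnfaip3 and Bcl3). RNA was sequenced from 4 cultured mouse mammary tumor cell lines of the C57BL/6 strain, each grown from a tumor and each giving 1 library. In both groups Cre recombinase under the Wap promoter, which is active in luminal mammary epithelium during lactation, had removed floxed Trp53. The JNK_WT lines (replicates 1 and 2, genotype p53-/-) carried no further deletion, and the JNK_KO lines (replicates 1 and 3, genotype p53-/- JNK-/-) had also lost the floxed JNK genes Mapk8 and Mapk9. The lines were untreated, the ages of the mice were not among the labels, and the labels do not say whether a line is 1 clone.

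NF-kB factors are dimers of proteins that share the Rel homology domain. RELA, RELB and c-REL (from Rel) carry an activation domain, whereas Nfkb1 and Nfkb2 encode precursors whose ankyrin repeats must be removed before the mature proteins can act. In resting cells the dimers are held in the cytoplasm by IkB proteins such as those of Nfkbia and Nfkbie, and IkB kinase releases them after signals from TNF, interleukin 1 or Toll-like receptors. A second route, through the kinase of Map3k14, processes the Nfkb2 precursor and releases RELB. Several of the inhibitors are themselves NF-kB targets, so their RNA is often read as a trace of pathway activity. In the mammary gland the pathway is known for its role downstream of RANK, the receptor of RANKL, and in inflammatory breast tumor cells.

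The DNA element that NF-kB dimers bind is shown first, because feedback by NF-kB on its own inhibitors is known to run through such elements. The kappaB consensus, a 10-base element of 3 guanines, a purine, any pair of bases, a pair of pyrimidines and a pair of cytosines, was searched on both strands in the 250 bases before each RefSeq start in GRCm38.p6. RefSeq promoter windows were at hand for 7 of the 10 genes, and the element was found before at least 1 start of 5 of them (Nfkb2, Rel, Nfkbia, Nfkbie and Tnfaip3). Of 27025 genes with such a window, 8.23% held the element. It was not found in the windows of Rela and Bcl3. The stretches before the starts of 2 IkB genes and of Rel are given with the element in capitals, 5′ to 3′ on the strand of the gene. They lie at chr12:55492648-55492767 (Nfkbia, minus strand), chr17:45555580-45555699 (Nfkbie, plus strand) and chr11:23770971-23771090 (Rel, minus strand), outside the exons of the annotation.
Nfkbia: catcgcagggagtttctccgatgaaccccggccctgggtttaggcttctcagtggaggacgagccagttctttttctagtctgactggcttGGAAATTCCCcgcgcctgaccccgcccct
Nfkbie: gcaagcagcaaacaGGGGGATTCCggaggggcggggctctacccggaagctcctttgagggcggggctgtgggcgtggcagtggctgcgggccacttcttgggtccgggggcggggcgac
Rel: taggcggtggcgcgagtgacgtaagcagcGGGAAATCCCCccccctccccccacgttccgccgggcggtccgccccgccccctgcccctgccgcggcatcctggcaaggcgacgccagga

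The match of Nfkbia began 29 bases before its start and that of Nfkbie 106 bases before, and the capitals of Rel are 2 matches that overlap. Nfkb2 held 5 matches over its 3 RefSeq starts, among them GGGAATTCCC at 39 and GGGGCTTTCC at 11 bases before the first start. Tnfaip3 held GGGACACCCC at 125 and GGAAATCCCC at 12 bases before its upstream start. Unlike the printed stretches, the matches of Nfkb2 and Tnfaip3 lie within the annotated extent of their genes, in windows that hold exon bases. A match is a description of the letters, and binding was not measured here.

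The libraries and their labels were checked before these genes were compared. FPKM (fragment counts scaled to the length of the transcript and to the mapped fragments of the library) summed to between 775960 and 921595 in the 4 libraries. Depth relative to JNK_KO replicate 1, read from the steps of low values, was between 1.06 and 1.40 in the other 3. Mapk8 was at 23.9 and 19.1 FPKM in the JNK_WT lines and at 4.30 and 4.27 FPKM in the JNK_KO lines. Mapk9 was at 29.7 and 24.3 FPKM against 12.6 and 8.66 FPKM, so that both targeted genes were lower in each JNK_KO library. Trp53, floxed in both groups, was at 1.55 and 4.15 FPKM against 5.72 and 4.28 FPKM. The epithelial markers Epcam, Cdh1, Krt8 and Krt18 summed to 2992 and 2061 FPKM in the JNK_WT lines and to 872 and 1728 FPKM in the JNK_KO lines. Epcam and Krt8 lay under in both JNK_KO lines, beside 16.7% of all tested genes. Krt18 and Cdh1 overlapped between groups. Cdh1 was at 121 and 115 FPKM against 58.4 and 127 FPKM, so that its highest library was JNK_KO replicate 3. Of 7 leukocyte markers, 6 were under 1 FPKM in every library, including Ptprc, and the other, Cd68, was highest in JNK_WT replicate 1. The 3 endothelial markers were under 1 FPKM throughout. Of 4 fibroblast markers, Pdgfra, Dcn and, at 0.540 and 1.19 FPKM, Thy1 lay above in both JNK_KO lines, while Col1a1 was under 1 FPKM in every line. Pdgfra and Dcn were under 1 FPKM in both JNK_WT lines. They passed the filter of the test through the JNK_KO lines alone and so had to be higher there. Thy1 and Col1a1 did not pass it. The list summed to 1.37 and 1.02 FPKM against 105 and 171 FPKM. Whether these differences in cell state have a part in the values of the NF-kB genes was not tested. In bulk RNA, fewer cells of a type and less RNA per cell cannot be told apart.

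In the comparison of JNK_KO with JNK_WT cells, 9 of the 10 genes had a higher mean in JNK_KO cells and none passed the test. The genes farthest apart were Bcl3, Nfkb2, Nfkbie, Nfkbia and Relb, with log2 differences of log2(FPKM + 1) between 0.84 and 1.33. Rela and Nfkb1, which form the commonest NF-kB dimer, differed by 0.16 and 0.23. Tnfaip3, which encodes the ubiquitin-editing inhibitor A20, was the exception, with a difference of -0.18 and JNK_WT lines at the extremes. All 10 genes were over 1 FPKM in all 4 libraries, so none entered the test through 1 group alone.

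The test was limma on all 12998 genes with at least 1 FPKM in at least 2 libraries, with Benjamini-Hochberg adjustment. Among the 10 genes 0 were called at an adjusted p-value under 0.05 and an absolute log2 difference over 0.75, as for 0.00% of all tested genes, among which the lowest limma adjusted p-value was 0.0515. Before adjustment, 992 of the tested genes were under 0.05. Under other settings of the same test up to 25 genes passed, and the 10 genes were never among them. Limma adjusted p-values of the 10 genes ran from 0.485 to 0.999. In simulated data the test called only 4.65% of altered genes when their true log2 difference was 2. The largest difference among the 10 genes was 1.33, so 0 calls cannot show that they are unchanged. An unadjusted p-value under 0.05 with a higher value in JNK_KO cells was found for 4 genes (Nfkb2, Relb, Nfkbia and Nfkbie), beside 4.75% of all tested genes, and with a lower value for 0 genes, beside 2.89%. Of these 4 genes, 0 had such a p-value without JNK_KO replicate 1, 0 without JNK_WT replicate 2, 2 without JNK_WT replicate 1 and 3 without JNK_KO replicate 3. A log2 difference over 0.75 was found for 5 of the 10, beside 9.25% of all tested genes, and a difference under -0.75 for 0, beside 6.43%. The groups did not overlap, with JNK_KO on the upper side, for 7 of the 10, beside 18.3% of all tested genes, and with JNK_KO on the lower side for 0, beside 16.7%. The median log2 difference was 0.78 over the 10 genes and 0.01 over all tested genes. These are descriptions, since the 10 genes are regulated together and are not independent of each other. With 2 libraries against 2, an exact permutation test of a single gene cannot give a p-value under 0.33.

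**Figure D1:**
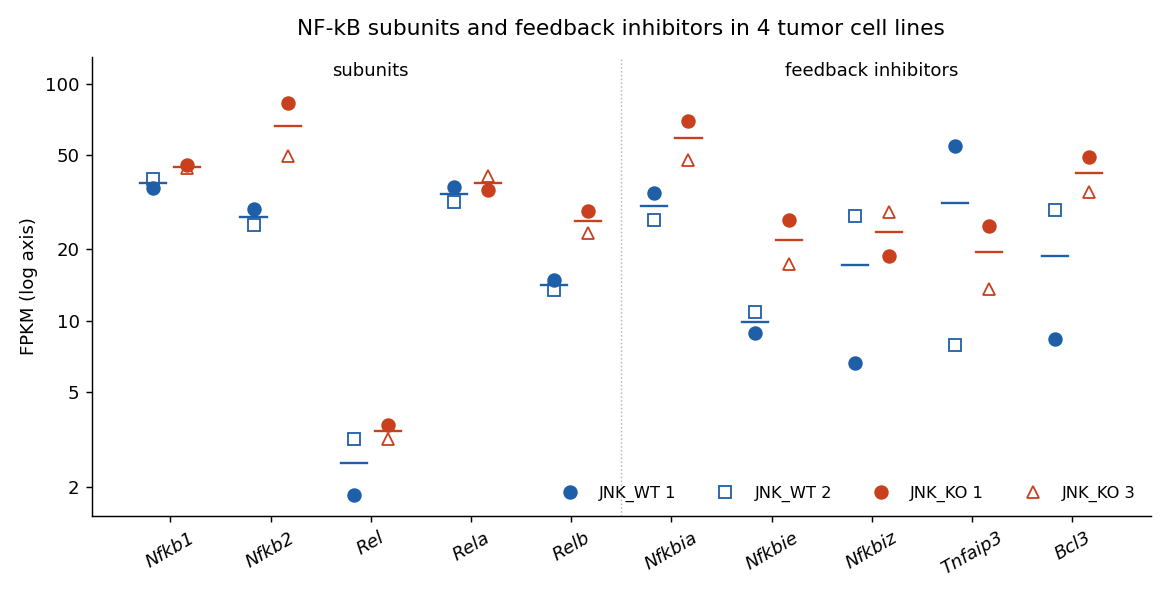
FPKM on a log axis of each of the 10 genes in the 4 libraries, JNK_WT in blue and JNK_KO in red, with 1 symbol per line and a bar at the mean of each group (n = 2). JNK_KO replicate 1 was the highest library for 7 of the 10 genes and no JNK_KO library was the lowest for any of them, while the JNK_WT lines stood far apart for Nfkbiz, Tnfaip3 and Bcl3.

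The subunits differed in how far apart the libraries lay. Nfkb1 (chromosome 3, 135584655 to 135691547, minus strand), which encodes the precursor of p50, was at 36.5 and 39.7 FPKM in JNK_WT lines and at 45.4 and 43.9 FPKM in JNK_KO lines. The groups did not overlap, but the highest library was only 1.25 times the lowest. Rela (chromosome 19, 5637483 to 5648130, plus strand), the main activating subunit, was at 36.7 and 31.7 FPKM against 35.8 and 40.8 FPKM, with groups that overlapped. Its log2 difference of 0.16 had a 95% interval from -0.48 to 0.80, which includes differences in either direction. For comparison, the highest library was a median of 1.69 times the lowest among 5950 genes with a mean of 10 to 60 FPKM.

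Nfkb2 (chromosome 19, 46304320 to 46312385, plus strand), which encodes the precursor of p52, was at 29.7 and 25.3 FPKM in JNK_WT lines and at 83.1 and 49.5 FPKM in JNK_KO lines. The lowest JNK_KO value was thus 1.66 times the highest JNK_WT value, and the JNK_KO lines differed more from each other than the JNK_WT lines did. The means were 27.5 ± 3.13 and 66.3 ± 23.8 FPKM (SD, n = 2 each), 2.41-fold apart. The log2 difference was 1.20 (SE 0.34, 95% interval 0.30 to 2.09) with a limma adjusted p-value of 0.485. Exons of Nfkb2 share 299 bases with the opposite-strand gene Psd, which had a mean of 1.67 FPKM.

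Relb (chromosome 7, 19606217 to 19629438, minus strand), the partner of p52 in the second NF-kB route, was at 14.9 and 13.5 FPKM in JNK_WT lines and at 29.2 and 23.5 FPKM in JNK_KO lines. The lines of a group lay close together here, and the lowest JNK_KO value was 1.58 times the highest JNK_WT value. The log2 difference was 0.84 (SE 0.26, 95% interval 0.14 to 1.54), with a limma adjusted p-value of 0.539. Rel (chromosome 11, 23736847 to 23770970, minus strand), whose product c-REL is best known from lymphocytes, was the least abundant, at 1.85 and 3.17 FPKM against 3.65 and 3.18 FPKM. Its groups were separated by 0.00703 FPKM only, and they overlapped under each of 3 other scalings between libraries.

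Ratios within a library do not depend on the scaling between libraries, and 3 of them were formed. The ratio of Nfkb2 to Nfkb1 RNA was 0.815 and 0.637 in the JNK_WT lines and 1.83 and 1.13 in the JNK_KO lines. That is, the p52 precursor transcript was below the p50 precursor transcript in both JNK_WT lines and above it in both JNK_KO lines. The ratio of Relb to Rela was 0.405 and 0.426 against 0.814 and 0.576. The ratio of the inhibitor Nfkbia to Rela was 0.943 and 0.837 against 1.95 and 1.17. For all 3 ratios the groups did not overlap, and JNK_KO replicate 1 was the highest. The numerators Nfkb2, Relb and Nfkbia were themselves above in both JNK_KO lines. The denominators Nfkb1 and Rela had log2 differences of only 0.23 and 0.16. The gap between groups in these ratios is thus partly fixed by the choice of genes and is not separate evidence. No background share for such ratios is given.

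**Figure D2:**
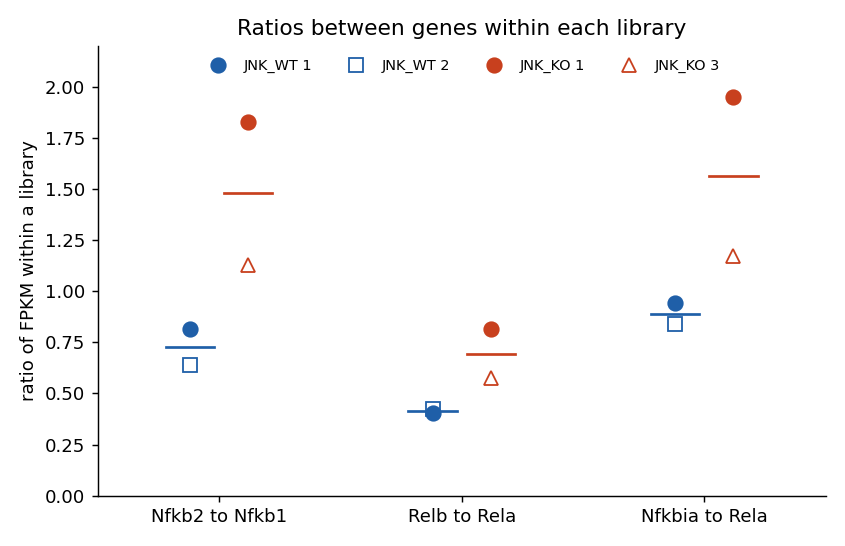
Ratio of FPKM between 2 genes within each library for Nfkb2 to Nfkb1, Relb to Rela and Nfkbia to Rela, with JNK_WT in blue, JNK_KO in red and a bar at the mean of each group (n = 2). The Nfkb2 to Nfkb1 ratio was below 1 in the JNK_WT lines and above 1 in the JNK_KO lines, and JNK_KO replicate 1 was the highest point of each ratio.

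Among the feedback inhibitors, the cytoplasmic IkB genes Nfkbia and Nfkbie separated the groups. Nfkbib, an IkB gene outside the 10 genes, overlapped, at 19.1 and 26.9 FPKM in JNK_WT lines and at 25.6 and 28.5 FPKM in JNK_KO lines. Nfkbia (chromosome 12, 55489410 to 55492647, minus strand), which encodes IkB alpha, was at 34.7 and 26.5 FPKM in JNK_WT lines and at 69.8 and 47.9 FPKM in JNK_KO lines. The means were 30.6 ± 5.75 and 58.9 ± 15.5 FPKM (SD, n = 2 each), 1.92-fold apart, with a log2 difference of 0.91 (SE 0.31) and a limma adjusted p-value of 0.589. Nfkbie (chromosome 17, 45555703 to 45563169, plus strand), which encodes IkB epsilon, was at 8.90 and 10.9 FPKM against 26.5 and 17.3 FPKM. The lowest JNK_KO value of Nfkbie was 1.59 times the highest JNK_WT value, and its log2 difference was 1.05 (SE 0.33, 95% interval 0.16 to 1.93) with a limma adjusted p-value of 0.543.

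The nuclear IkB proteins of Bcl3 and Nfkbiz act as cofactors of p50 and p52 dimers and can activate as well as repress. Bcl3 (chromosome 7, 19808462 to 19822770, minus strand) was at 8.41 and 29.3 FPKM in JNK_WT lines and at 48.9 and 35.0 FPKM in JNK_KO lines. The groups did not overlap, but the JNK_WT lines differed by 1.69 on the log2 scale, more than the difference of 1.33 between groups (SE 0.63, limma adjusted p-value 0.772). Without JNK_WT replicate 1 the difference of Bcl3 was 0.48, and without JNK_WT replicate 2 it was 2.17. Exons of Bcl3 share 161 bases with the antisense gene Gm16175, which had a mean of 4.14 FPKM, and without strand information reads of this stretch cannot be told apart. Nfkbiz (chromosome 16, 55811375 to 55838899, minus strand) was at 6.65 and 27.6 FPKM against 18.8 and 28.7 FPKM. Here JNK_WT replicate 1 alone was low, and without it the log2 difference was -0.24 in place of 0.72.

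Tnfaip3 (chromosome 10, 19000910 to 19015657, minus strand) had the widest range of the 10 genes. It was at 54.8 and 7.87 FPKM in the JNK_WT lines and at 25.2 and 13.6 FPKM in the JNK_KO lines. The highest and the lowest library were thus both JNK_WT, 6.95-fold apart, with the JNK_KO lines between them. The log2 difference of -0.18 (SE 0.96) had a 95% interval from -2.74 to 2.37, which leaves the direction unresolved. JNK_WT replicate 1 was therefore the highest library for Tnfaip3 and the lowest for Bcl3 and Nfkbiz.

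**Figure D3:**
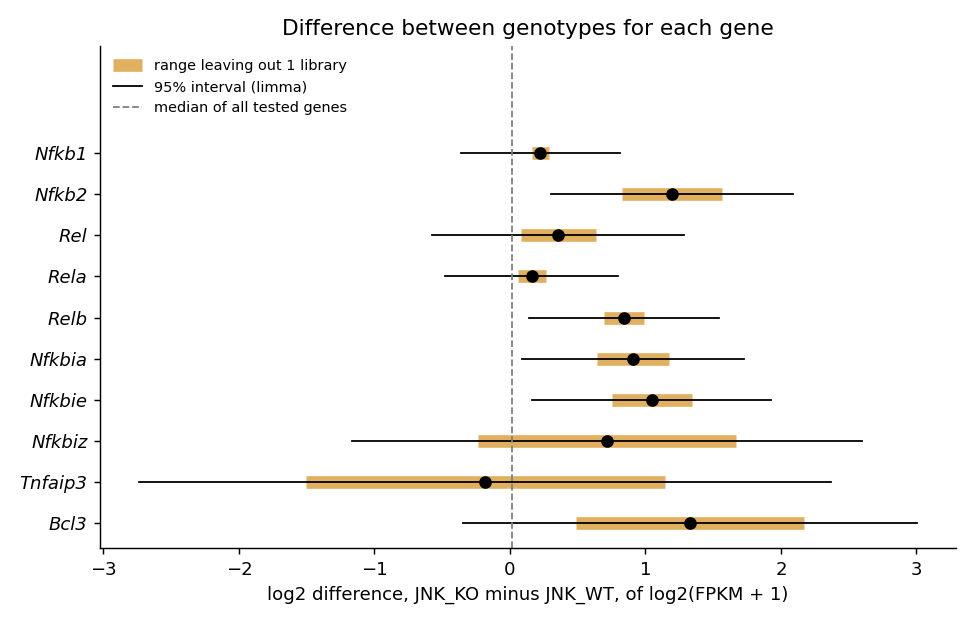
Log2 difference between JNK_KO and JNK_WT cells for each of the 10 genes (points), with the 95% interval of limma (black lines), the range over 4 fits that each left out 1 library (orange bars) and the median of all tested genes (dashed line, 0.01). The intervals of Nfkb2, Relb, Nfkbia and Nfkbie lie above 0, and the orange bars cross 0 for Nfkbiz and Tnfaip3 only.

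Because FPKM are scaled by length, levels can also be set in order between the 10 genes. By mean over the 4 libraries the order was Nfkb2 (46.9 FPKM), Nfkbia (44.7), Nfkb1 (41.4), Rela (36.3), Bcl3 (30.4), Tnfaip3 (25.4), Nfkbiz (20.4), Relb (20.3), Nfkbie (15.9) and Rel (2.96). Most neighbours in this order did not differ beyond their spread. Each of the first 7 genes was above the next in 2 or 3 of 4 libraries only, while Relb was above Nfkbie, and Nfkbie above Rel, in 4 of 4. Among the 5 subunits, Nfkb2 was the most abundant in both JNK_KO lines, whereas Rela (36.7 FPKM) and Nfkb1 (36.5 FPKM) were nearly level at the top in JNK_WT replicate 1 and Nfkb1 led in JNK_WT replicate 2.

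The position of the genes was examined next, since the median difference of a chromosome was not 0 in these lines. The median log2 difference of 411 other tested genes on chromosome 12 was -0.41, and 0 of 18 tested genes within 1000000 bases of Nfkbia were higher in JNK_KO cells, whereas Nfkbia itself had a difference of 0.91. Relb and Bcl3 lie near each other on chromosome 7, and the 39 tested neighbours of either had a median of -0.12. The 30 neighbours of Nfkb2 had a median of 0.15 and the 29 neighbours of Nfkbie a median of -0.03. These 5 genes are those with the largest differences of the 10, so that a gap to their neighbours is partly fixed by that choice. Of the remaining genes, Nfkb1 (0.23) and Tnfaip3 (-0.18) were close to the medians of their neighbours, 0.21 and -0.19. The medians around Rela, Rel and Nfkbiz were 0.028, -0.060 and 0.053.

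To place the 10 genes in their pathway, 83 other genes were examined in 6 lists by role, of which 76 could be tested. Of the 76, Ltb, Il33, Tnfsf11, Il6 and Saa3 passed the filter through the JNK_KO lines alone and so had to be higher there. The counts are therefore given over the other 71 genes. The 5 genes belong to the ligand and target lists. By the same rule 0 of the 71 were called, the lowest limma adjusted p-value being 0.231. An unadjusted p-value under 0.05 was found for 12 with a higher value in JNK_KO cells, beside 4.75% of all tested genes, and for 2 with a lower value, beside 2.89%. The groups did not overlap for 26 with JNK_KO on the upper side, beside 18.3% of all tested genes, and for 8 with JNK_KO on the lower side, beside 16.7%. The last 2 shares are the background for each count of genes above or under in both JNK_KO lines that follows.

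**Figure D4:**
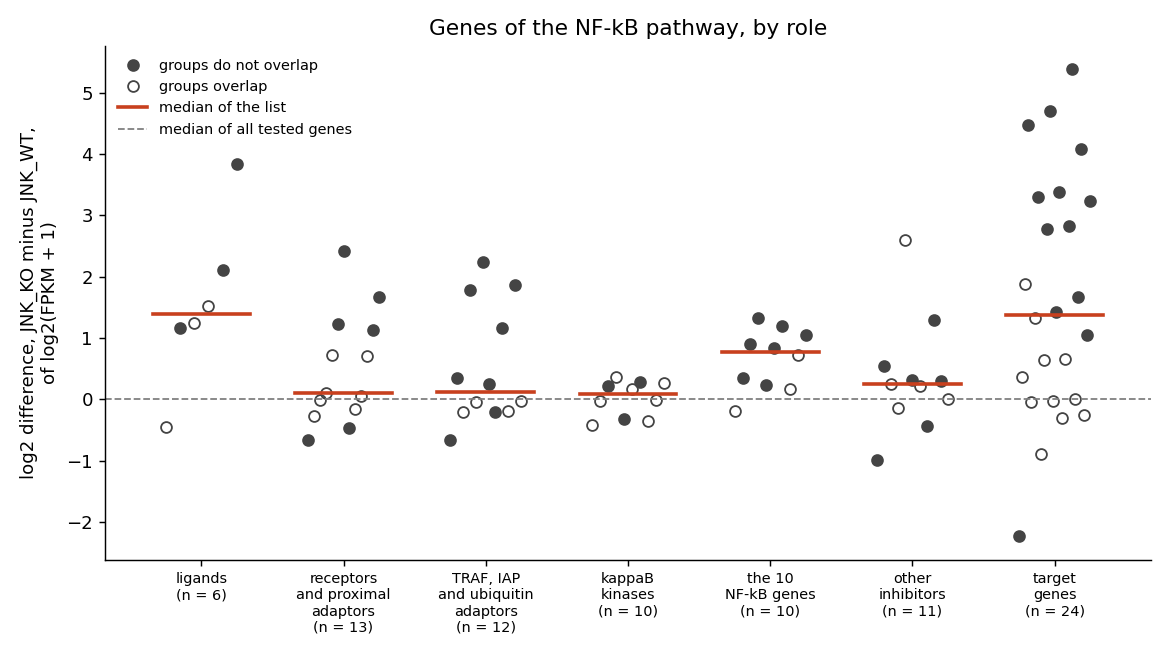
Log2 difference between JNK_KO and JNK_WT cells for the tested genes of 6 pathway lists and for the 10 NF-kB genes, with filled points where the groups did not overlap, a red bar at the median of each list and a dashed line at the median of all tested genes (0.01). Points and bars include Ltb, Il33, Tnfsf11, Il6 and Saa3, which passed the filter through the JNK_KO lines alone and so had to be higher there. Without them the ligand median was 1.25 and the target median 1.18. The kappaB kinases lie within -0.43 and 0.37, whereas the target genes reach from -2.23 to 5.38.

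Of 10 ligand genes, 6 could be tested, of which 3 (Ltb, Il33 and Tnfsf11) are those that passed through the JNK_KO lines alone. Of the other 3 ligands, 0 were without overlap. Tnfsf11, which encodes RANKL, was at 0.0480 and 0.707 FPKM in JNK_WT lines and at 21.4 and 15.2 FPKM in JNK_KO lines (log2 difference 3.83, SE 0.40, limma adjusted p-value 0.138). The lymphotoxin gene Ltb was at 0.193 and 0.469 FPKM against 5.95 and 3.66 FPKM, and Il33 at 0.255 and 0.173 FPKM against 1.33 and 2.16 FPKM. Il1a, which encodes interleukin 1 alpha, overlapped between groups at 0.444 and 8.25 FPKM against 6.66 and 13.4 FPKM.

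Of 15 receptor and adaptor genes, 13 could be tested, with a median of 0.10, 4 above and 2 under in both JNK_KO lines. Tlr2, which senses bacterial lipoproteins, was at 1.62 and 4.40 FPKM in JNK_WT lines and at 13.3 and 27.5 FPKM in JNK_KO lines (log2 difference 2.42, SE 0.56, limma adjusted p-value 0.401). The interleukin 1 receptor Il1r1 was at 0.511 and 5.62 FPKM against 10.7 and 7.70 FPKM. The endotoxin receptor Tlr4 and the shared adaptor Myd88 had differences of 1.23 and 1.13 without overlap. Tnfrsf12a, the TWEAK receptor and the most abundant gene of the list, went the other way, at 409 and 451 FPKM against 248 and 298 FPKM (log2 difference -0.66, limma adjusted p-value 0.638).

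Of 12 TRAF, IAP and ubiquitin adaptor genes, all of which were tested, 6 lay above and 2 under in both JNK_KO lines, with a median of 0.11. The cellular inhibitor of apoptosis gene Birc3, itself a known NF-kB target, was at 14.7 and 9.01 FPKM in JNK_WT lines and at 72.6 and 46.1 FPKM in JNK_KO lines (log2 difference 2.23, SE 0.38, limma adjusted p-value 0.256). Its neighbour and paralog Birc2 was at 8.73 and 4.95 FPKM against 31.5 and 22.4 FPKM (1.86, SE 0.38). Of 9 other tested genes around Birc2, Birc3 among them, 8 were also higher in JNK_KO cells, though by a log2 difference of only 0.02 for Yap1 and 0.14 for Mmp10. Among these, Mmp7 passed the filter through the JNK_KO lines alone and so had to be higher there. Traf1, another known target, was at 8.44 and 11.0 FPKM against 51.5 and 24.6 FPKM (1.79, SE 0.44). Rnf31, the catalytic subunit of the linear ubiquitin ligase, had a difference of 1.17 (SE 0.39), whereas its partner Rbck1, the most abundant gene of the list, had one of -0.19 with overlapping groups.

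The 10 kappaB kinase genes, which encode IkB kinase and the kinases around it, had a median of 0.08. Of them 2 lay above and 1 under in both JNK_KO lines, which is near the shares of all tested genes. Map3k14, the NIK kinase of the second route, was at 11.1 and 6.08 FPKM in JNK_WT lines and at 8.12 and 4.24 FPKM in JNK_KO lines. Map3k7, which encodes TAK1, and Tab3 also overlapped, with differences of 0.37 and -0.35. Tab2, the most abundant of them, was at 47.1 and 53.8 FPKM against 35.1 and 45.7 FPKM (log2 difference -0.32, limma adjusted p-value 0.936).

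Of 12 other inhibitor genes, 11 could be tested, with a median of 0.24, 4 above and 2 under in both JNK_KO lines. Tax1bp1, an adaptor of A20, was at 158 and 188 FPKM in JNK_WT lines and at 78.0 and 96.8 FPKM in JNK_KO lines (log2 difference -0.98, SE 0.25, limma adjusted p-value 0.440). It lies on chromosome 6, where 590 other tested genes had a median of -0.59 and 0 of the 9 tested neighbours of Tax1bp1 were higher in JNK_KO cells. Zc3h12a, which encodes the RNase Regnase-1, was at 2.80 and 12.4 FPKM against 18.6 and 14.7 FPKM. Tnip3, another partner of A20, was at 1.41 FPKM in JNK_WT replicate 1 only and between 38.1 and 106 FPKM in the other lines, with overlapping groups.

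All 24 target genes could be tested, although Il6 and Saa3 passed the filter through the JNK_KO lines alone. Of the other 22, both JNK_KO lines lay above both JNK_WT lines for 10, beside 18.3% of all tested genes, and under them for 1, beside 16.7%. An unadjusted p-value under 0.05 with a higher value in JNK_KO cells was found for 7 of the 22, beside 4.75%. The median log2 difference of the 22 was 1.18, and it was 1.37 with Il6 and Saa3. The chemokine gene Ccl2 was at 0.249 and 1.12 FPKM in JNK_WT lines and at 177 and 24.8 FPKM in JNK_KO lines. The adhesion gene Icam1 was at 0.770 and 1.56 FPKM against 32.3 and 13.6 FPKM (log2 difference 3.37, SE 0.52, limma adjusted p-value 0.231). Vcam1, another adhesion gene, was at 3.40 and 0.449 FPKM against 33.2 and 15.5 FPKM. Saa3, an acute-phase gene, was at 0.0490 and 0.748 FPKM against 38.5 and 12.3 FPKM.

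The remaining targets without overlap included further chemokine and cytokine genes. Cxcl2 had a log2 difference of 3.30, Cxcl10 of 4.47, Il6 of 2.78, Mmp9 of 2.83 and Ccl5 of 1.67, and JNK_KO replicate 1 was the higher of the JNK_KO lines for each of these but Il6. Ptgs2, which encodes cyclooxygenase 2, was at 30.7 and 23.7 FPKM against 66.4 and 82.9 FPKM, and Sod2, a mitochondrial antioxidant enzyme, at 11.3 and 22.3 FPKM against 41.4 and 27.7 FPKM. Cxcl5 was at 2.29 FPKM in JNK_WT replicate 1 but at 630 FPKM in JNK_WT replicate 2, below 1425 and 996 FPKM in the JNK_KO lines. The iron-binding Lcn2, the most abundant target, overlapped between groups, at 59.1 and 1892 FPKM against 642 and 1100 FPKM. Plau, which encodes urokinase, lay under in both JNK_KO lines, at 761 and 52.8 FPKM against 42.8 and 41.3 FPKM, with JNK_WT replicate 1 far above the other 3. In all, 11 of the 22 targets other than Il6 and Saa3 overlapped between the groups, while 10 lay above and 1 under in both JNK_KO lines. Among all tested genes, 18.3% lay above and 16.7% under.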

How the data were processed

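Total RNA of 4 mammary tumor cell lines was sequenced as single-end short reads. The authors trimmed the reads with Trimmomatic, sampled them with seqtk, aligned them to mm10 with Bowtie2 and TopHat2 (2.0.14) and deposited FPKM from Cufflinks (2.2.1), 1 value per gene and library. Versions of the last pair are from the submitters' processing notes. The annotation used is not given in the sources used here, nor is strand-specific counting stated. Cufflinks divides by transcript length and shares reads between overlapping genes by an estimate.

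Of 38741 rows, 27 with symbols turned into dates and 1 without values were left out. Genes with at least 1 FPKM in at least 2 libraries (12998) were tested on log2(FPKM + 1) with limma 3.58.1 in R 4.3.3 (eBayes with an intensity trend, two-sided, Benjamini-Hochberg). Fold changes of low genes are understated on this scale. Calls needed an adjusted p-value under 0.05 and an absolute log2 difference over 0.75, as in the study, whose own test needs alignments. The fit was tested on simulated data. With the true log2 difference set to 2 it called 4.65% of the altered genes, and with 4 it called 94.5%. The largest difference among the NF-kB genes was 1.33, so the absence of calls among them does not show that they are unchanged. Positions come from GENCODE M21 (GRCm38) by symbol, and Otulin and Adgre1 were read under the older symbols Fam105b and Emr1. Intervals of limma use its moderated variance. Depth per library is known only relative to another library, and no interval for counting error was computed. Whether the lines represent separate mice is not in the labels, so p-values measure the spread between these lines.

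Named were the 10 genes, and of each list the 3 genes with the largest difference, the most abundant gene, and genes over 0.75 without overlap. Genes and lists were chosen with earlier results of these data known. No gene was named for likeness of pattern, since 4 libraries are too few. Other pseudocounts, filters, scalings, variance models and fits without each library were run as alternatives. Summaries were made with Python 3.11.15 and pandas 2.3.3, and figures with matplotlib 3.10.9.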

Additional observations from a re-analysis of the deposited data

How the results depend on the processing

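No paired analysis was possible because the labels give no pairing of JNK_WT with JNK_KO lines. The count of called NF-kB genes was 0 under every alternative run. Over all genes, calls numbered 10 and 14 once the pseudocount was lowered to 0.1 and 0.5, 14 when the trend was dropped from the variance model and 25 when the adjusted p-value needed only to be under 0.1. The cause was not tested. Across the fits that each left out 1 library, the NF-kB genes with an unadjusted p-value under 0.05 numbered from 0 (without JNK_KO replicate 1) to 3, against 4. Without JNK_WT replicate 2 the 3 were Nfkbiz, Tnfaip3 and Bcl3, none of the original 4, and Tnfaip3 was lower in JNK_KO cells. Without JNK_WT replicate 1 the number was 2. Genes under in both JNK_KO lines numbered from 0 to 1 (Tnfaip3, without JNK_WT replicate 2). Such fits assume that a lone library varies like the rest. Their log2 differences ranged from -0.24 to 1.67 for Nfkbiz and from -1.51 to 1.14 for Tnfaip3, which was also 0.24 without JNK_KO replicate 3, and no other of the 10 genes changed direction under any alternative.

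The number of the 10 genes above in both JNK_KO lines, 7, was 6 under quantile, upper quartile and median-of-ratios scaling, where Rel overlapped, and 6 with a filter at a mean of 5 FPKM, which removed Rel. Medians of lists moved with the genes let in. The main ligand median was 1.38. It was 1.25 without Ltb, Il33 and Tnfsf11, which passed the main filter through the JNK_KO lines alone. Unfiltered, the ligand median was 0.70 and the receptor median 0.33. The stricter filter gave a receptor median of 0.41, a TRAF, IAP and ubiquitin median of 0.25, and 1 ligand above in both JNK_KO lines. That ligand was Tnfsf11, which was under 1 FPKM in both JNK_WT lines. The lowest pseudocount, 0.1, gave medians of 2.35 for ligands, with Ltb, Il33 and Tnfsf11 included, and 0.21 for the TRAF list. Quantile normalization gave 0.063 for the TRAF list and 0.028 for the kinases.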

Other observations

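Birc2 and Birc3 are adjacent on chromosome 9, and the genes around them were looked up after their values had been seen. Of 9 other tested genes within 1000000 bases of Birc2, Birc3 among them, 8 were higher in JNK_KO cells, with a median log2 difference of 0.70, beside 0.11 for the 681 other tested genes of chromosome 9. The differences were not alike along this stretch. Of the 4 tested matrix metalloproteinase genes in it, Mmp7 passed the filter through the JNK_KO lines alone and so had to be higher there. It was at 0.591 and 0.632 FPKM in JNK_WT lines and at 3.69 and 5.80 FPKM in JNK_KO lines, and it is among the 8. Of the others, Mmp3 and Mmp13 lay above in both JNK_KO lines, beside 18.3% of all tested genes. Mmp3 was at 2.09 and 8.15 FPKM against 51.2 and 28.7 FPKM, and Mmp13 at 6.47 and 4.65 against 20.5 and 38.1 FPKM. Mmp10 overlapped between groups with a log2 difference of 0.14, and its lowest library was a JNK_KO line at 0.856 FPKM. Tmem123, between the Mmp genes and Birc2, was at 75.3 and 43.0 against 91.5 and 95.1 FPKM (log2 difference 0.70). Dcun1d5, on the far side of the Mmp genes, was at 62.8 and 54.3 against 65.7 and 76.7 FPKM. Both thus lay above in both JNK_KO lines. Yap1, the next tested gene beyond Birc3, overlapped at 67.4 and 59.7 against 56.8 and 72.8 FPKM. Dync2h1 was the neighbour with a lower value in JNK_KO cells (log2 difference -0.32). Copy number was not measured in these files.

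Traf3, which encodes an inhibitor of the second NF-kB route, was at 17.9 and 11.0 FPKM in JNK_WT lines and at 8.06 and 8.90 FPKM in JNK_KO lines, a log2 difference of -0.67 (limma adjusted p-value 0.816). It was looked up after its values had been seen. It lies on chromosome 12, and 1 of its 22 tested neighbours was higher in JNK_KO cells, with a median of -0.66 among them. Nfkbia lies on the same chromosome and had a difference of 0.91.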
